A study of Mus musculus with 4 samples.

Results

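The Bcl2 family of apoptosis regulators is described here in recruited alveolar macrophages, which derive from blood monocytes and populate the airspaces after lung injury. Its 10 members were set as a list of gene symbols, with earlier results of these data known, and all 10 were found among the 16360 gene rows. They comprise 5 pro-survival genes (Mcl1, Bcl2l1, Bcl2a1b, Bcl2a1d and Bcl2), 2 effector genes (Bak1 and Bax) and 3 BH3-only genes (Bcl2l11, Bbc3 and Bid). The macrophages came from male mice carrying R213G on both alleles of Sod3, the gene of extracellular superoxide dismutase (EC-SOD), and from WT male mice. The variant lies in the coding sequence, and the series title speaks of a redistribution of EC-SOD. The strain is written CD57/Bl6 in the labels, and the mice were 8 to 10 weeks old. All mice were given intratracheal bleomycin (1 U/ml, 100 µl), so no group was without bleomycin. On day 7 after bleomycin the cells were isolated by flow cytometry, with high CD64, high CD11b and low Siglec-F as the gate. There were 2 libraries per genotype, 4 in all, and the same title speaks of accelerated apoptosis after bleomycin, which is the question this gene family bears on. The protocol gives n = 2 without stating if 1 library is 1 mouse or a pool. The p-values therefore reflect the spread among these libraries alone, which may be technical.

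The Bcl2 family controls the mitochondrial route to apoptosis. BAX and BAK are the effectors that perforate the outer mitochondrial membrane and release cytochrome c. Pro-survival proteins such as MCL-1, BCL-XL, A1 and BCL-2 hold the effectors in check, and BH3-only proteins such as BIM, PUMA and BID answer to stress by blocking the pro-survival proteins or activating the effectors. In myeloid cells A1 is known as a target of NF-kB and of growth factor signals, MCL-1 as a protein of rapid turnover, and BIM as a trigger of death when survival cytokines are withdrawn. These controls act in large part on the proteins, which RNA counts do not show.

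A pair of members cannot be read as single genes, and their sequences show why. Bcl2a1b (chromosome 9, 89199209 to 89207827, plus strand) and Bcl2a1d (chromosome 9, 88723285 to 88731914, minus strand) are copies of the gene for A1, as are Bcl2a1a (chromosome 9, 88956900 to 88962419, plus strand) and the shorter Bcl2a1c (chromosome 9, 114330135 to 114330578, plus strand), all on GRCm38. The first 120 coding bases of the 3 full-length copies, from the GENCODE vM21 transcripts, are given below from the A of the start codon, with capitals at the 7 positions where the copies differ.
Bcl2a1a: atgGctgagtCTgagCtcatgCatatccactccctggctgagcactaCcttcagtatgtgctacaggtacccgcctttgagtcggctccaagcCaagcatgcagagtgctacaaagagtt
Bcl2a1b: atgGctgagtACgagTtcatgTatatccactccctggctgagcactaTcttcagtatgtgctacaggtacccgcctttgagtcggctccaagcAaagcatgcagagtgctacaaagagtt
Bcl2a1d: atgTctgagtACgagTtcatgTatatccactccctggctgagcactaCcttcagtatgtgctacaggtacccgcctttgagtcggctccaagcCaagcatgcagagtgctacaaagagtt
Over all 516 coding bases, Bcl2a1b and Bcl2a1d differed at 6 positions. Counted from the A of the start codon, with the base of Bcl2a1d first, these are T4G, C48T, C94A, A312G, G381C and A490T. Coding bases 95 to 311, a stretch of 217, were identical in Bcl2a1a, Bcl2a1b and Bcl2a1d. Over their whole transcripts Bcl2a1b and Bcl2a1d were 99.1% identical. Of the 50-base windows of the transcript, 57.6% for Bcl2a1b and 79.5% for Bcl2a1d recurred exactly in another copy, and of the 100-base windows 31.1% and 54.7% did. How multi-mapping reads were counted is not given in the sources used here, so the split of reads among the copies is uncertain.

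The copies are alike upstream as well. A stretch of 186 bases that ends just before the annotated start of each, taken from the RefSeq promoter table (GRCm38.p6), are shown with the purine-rich element GAGGAAGT in capitals. That element is a form of the site bound by PU.1, the lineage transcription factor of macrophages, and it was chosen for display after the sequences were seen.
Bcl2a1b, chr9:89199023-89199208, plus strand: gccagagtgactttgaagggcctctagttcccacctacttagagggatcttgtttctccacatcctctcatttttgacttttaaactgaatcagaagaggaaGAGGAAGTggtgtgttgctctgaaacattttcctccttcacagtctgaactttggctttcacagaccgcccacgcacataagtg
Bcl2a1d, chr9:88731915-88732100, minus strand: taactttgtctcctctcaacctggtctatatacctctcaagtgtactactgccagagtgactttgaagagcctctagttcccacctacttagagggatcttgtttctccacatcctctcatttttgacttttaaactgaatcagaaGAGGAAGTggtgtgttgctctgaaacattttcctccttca
The window of all 4 copies held GAGGAAGT on either strand, but the element was picked from such sequences, so this was fixed beforehand. The windows were also 95.7% to 99.2% identical between copies, so they are not separate observations. Of promoter windows of the same length, 1052 of 32851 held the element, or 3.2%. That share is background only, and no enrichment can be read from it. Among the 10 members the window of Bak1 also held GAGGAAGT, and those of the other 7 did not. A match describes letters in a window and is not a site that was shown to be bound.

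The libraries were alike in depth, with 33488569 to 35176210 counts each. R213G replicate 1 stood apart, with 13584 genes detected against 14598 to 15194 in the other 3 libraries, so fold changes that rest on it are also given without it. Sod3 itself had 4 and 47 counts in R213G libraries and 47 and 96 in WT libraries. As R213G is a coding variant, this level does not check the labels. The 6 genes that define macrophages and the sort (Fcgr1, Itgam, Adgre1, Cd68, Mertk and Csf1r) were abundant in every library, led by Cd68 at 1892 and 2328 CPM in R213G libraries and 2342 and 2046 CPM in WT libraries. Siglecf, which the sort selects against, had 358 to 413 counts per library. In bulk RNA, fewer cells of a type and less RNA per cell cannot be told apart.

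Members were first compared by level. A level is the library's counts per 1000000 (CPM, after TMM normalization) divided by the length in kilobases of all annotated exons of the gene, since only a value per length can be compared between genes. The levels spanned from 222 CPM per kb for Mcl1 to 1.94 CPM per kb for Bcl2, as means over the 4 libraries. Summed by class, the pro-survival genes stood above the effectors and the effectors above the BH3-only genes in all 4 libraries, although the lowest single member, Bcl2, is pro-survival. All values in this comparison are levels and carry no test.

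Among the pro-survival genes Mcl1 dominated (chromosome 3, 95658788 to 95663176, plus strand). It stood at 229 and 217 CPM per kb in R213G libraries and at 217 and 226 CPM per kb in WT libraries. It ranked 131 of 13288 tested genes with a length, and made up 76.0% and 78.5% of the summed level of the 5 pro-survival genes in R213G libraries and 75.5% and 81.4% in WT libraries. Bcl2l1 (chromosome 2, 152780668 to 152831728, minus strand), which encodes BCL-XL, came next in the class at 26.5 and 25.9 CPM per kb in R213G libraries and 29.1 and 24.1 CPM per kb in WT libraries. The Bcl2a1 pair followed. Bcl2a1b stood at 21.2 and 14.1 CPM per kb in R213G libraries and 21.2 and 15.2 CPM per kb in WT libraries, and Bcl2a1d at 22.6 and 17.9 CPM per kb in R213G libraries and 17.8 and 10.7 CPM per kb in WT libraries. Of the exon bases of Bcl2a1b, 49.1% also belong to the annotated gene Gm29094 on the same strand, a second source of uncertainty in its count. Bcl2 (chromosome 1, 106538178 to 106714274, minus strand), the founding member and best known from lymphocytes, was the lowest of all 10, at 1.80 and 1.71 CPM per kb in R213G libraries and 2.42 and 1.84 CPM per kb in WT libraries.

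Both effectors were well represented. Bak1 (chromosome 17, 27019810 to 27029009, minus strand) stood at 98.6 and 99.4 CPM per kb in R213G libraries and 90.6 and 96.2 CPM per kb in WT libraries, second only to Mcl1 among the members. Bax (chromosome 7, 45461697 to 45466898, minus strand) stood at 55.9 and 59.3 CPM per kb in R213G libraries and 53.5 and 60.9 CPM per kb in WT libraries. Bak1 thus made up 61.2% to 63.8% of the effector sum over the 4 libraries. Of the exon bases of Bax, 12.2% also belong to the annotated gene Gm45808 on the same strand. Of the exon bases of Bak1, 25.5% overlap Ggnbp1 on the opposite strand, and that gene had 9 and 50 counts in R213G libraries and 125 and 111 in WT libraries. Bak1 had 7207 counts in its lowest library.

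The BH3-only members were lower. Bcl2l11 (chromosome 2, 128126038 to 128162547, plus strand), which encodes BIM, led them at 15.0 and 15.0 CPM per kb in R213G libraries and 15.5 and 15.8 CPM per kb in WT libraries. Bbc3 (chromosome 7, 16308393 to 16318205, plus strand), which encodes the p53-induced protein PUMA, stood at 5.52 and 8.56 CPM per kb in R213G libraries and 10.0 and 7.37 CPM per kb in WT libraries. Bid (chromosome 6, 120891930 to 120916853, minus strand), whose product is cleaved by caspase-8 downstream of death receptors, stood at 4.23 and 5.69 CPM per kb in R213G libraries and 7.72 and 5.95 CPM per kb in WT libraries. For both genes the lowest library was R213G replicate 1 and the highest WT replicate 1.

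**Figure D1:**
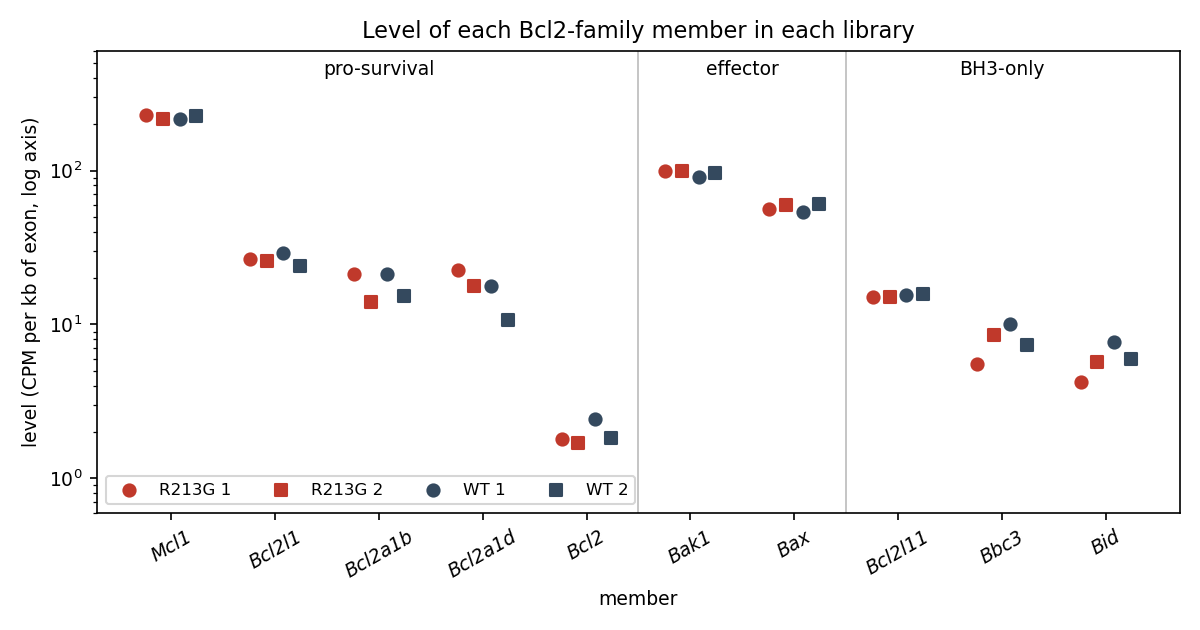
Level of each member (CPM per kilobase of exon, log axis) in each of the 4 libraries, R213G left of WT, grouped by class. Mcl1 sits highest (217 to 229), Bak1 and Bax follow, and Bcl2 sits lowest (1.71 to 2.42); the 4 points of Mcl1 and of Bcl2l11 nearly coincide, while those of Bcl2a1d, Bbc3 and Bid are spread.

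From highest to lowest mean level the order was Mcl1, Bak1, Bax, Bcl2l1, Bcl2a1b, Bcl2a1d, Bcl2l11, Bbc3, Bid and Bcl2. The 4-library ranges of neighbours overlapped for Bcl2a1b and Bcl2a1d, for Bcl2a1d and Bcl2l11, and for Bbc3 and Bid, so these neighbours did not differ beyond their spread over libraries. Within each of the 4 libraries Bbc3 was nevertheless above Bid, while Bcl2a1b was above Bcl2a1d in 2 libraries and Bcl2a1d above Bcl2l11 in 3. The ranges of the other 6 neighbouring pairs did not overlap. The order depended on the length used for genes with long untranslated regions. Per kilobase of the longest coding sequence, Bcl2l11 ranked 3 of 10 at 209, above Bcl2l1 at 173 and Bax at 157, while Mcl1 at 765 and Bak1 at 369 kept the first places. Bcl2 was last under all 3 lengths used (all exons, longest transcript and longest coding sequence), although per coding kilobase its range overlapped that of Bcl2a1b.

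Summed by class, the pro-survival genes came to 301 and 277 CPM per kb in R213G libraries and 288 and 278 CPM per kb in WT libraries. The effector genes came to 155 and 159 CPM per kb in R213G libraries and 144 and 157 CPM per kb in WT libraries, and the BH3-only genes to 24.7 and 29.3 CPM per kb in R213G libraries and 33.3 and 29.1 CPM per kb in WT libraries. The BH3-only class therefore held 5.15% and 6.30% of the total of the 3 classes in R213G libraries and 7.15% and 6.27% in WT libraries. The ratio of the pro-survival to the BH3-only sum was 12.2 and 9.45 in R213G libraries and 8.65 and 9.55 in WT libraries, with means of 10.8 ± 1.92 in R213G and 9.10 ± 0.634 in WT (SD, n = 2 each). The genotypes overlapped, and R213G replicate 1 alone stood above the rest. The ratio of the pro-survival to the effector sum was 1.95 and 1.75 in R213G libraries and 2.00 and 1.77 in WT libraries, so replicate 1 was higher than replicate 2 in both genotypes. No test of the ratios was made, since with 2 libraries per genotype no exact permutation test can reach the threshold of 0.05.

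**Figure D2:**
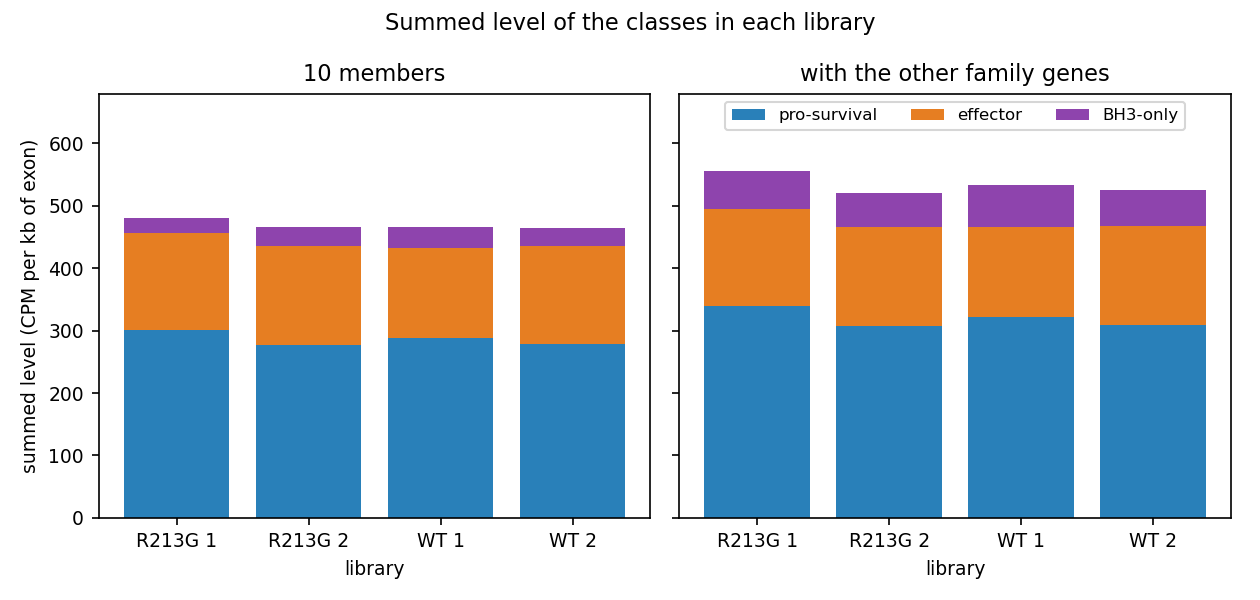
Summed level of the pro-survival, effector and BH3-only classes (CPM per kilobase of exon, stacked) in each library, for the 10 members (left) and with 8 further family genes of the same classes (right). The 4 bars of a panel have nearly the same height and split, and the BH3-only part lies between 24.7 and 33.3 in the left panel and between 54.9 and 67.7 in the right one.

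Relatives outside the 10 members were also read, among them 3 tested BH3-only genes. Bmf, whose protein is released from the cytoskeleton under stress, stood at 15.3 and 9.60 CPM per kb in R213G libraries and 12.5 and 13.0 CPM per kb in WT libraries. This overlaps the range of Bcl2l11 per kilobase of all exons, but the overlap depends on that length. All exons of Bcl2l11 cover 8029 bases and its longest transcript 5036, against 5253 and 4642 for Bmf. Before division by length Bmf stood at 50.4 to 80.6 CPM and Bcl2l11 at 120.2 to 127 CPM. Bad, which growth factor signalling keeps phosphorylated and inactive, stood at 12.2 and 10.4 CPM per kb in R213G libraries and 12.4 and 11.2 CPM per kb in WT libraries. Pmaip1, which encodes the MCL-1 antagonist NOXA, stood at 8.15 and 5.47 CPM per kb in R213G libraries and 9.57 and 4.47 CPM per kb in WT libraries. Bmf and Bad were above Bid and Bbc3 in all 4 libraries, and Pmaip1 was higher in replicate 1 than in replicate 2 of both genotypes. Bik and the effector relative Bok were near 0, each with 0 counts in replicate 1 of both genotypes and at most 28 counts in replicate 2. Among pro-survival relatives, Bcl2l2 (BCL-W) stood at 4.48 and 4.94 CPM per kb in R213G libraries and 5.56 and 5.47 CPM per kb in WT libraries. These genes were added to the class sums, as were Bcl2a1a and Bcl2a1c, whose share of reads is uncertain. Bcl2a1a brought in 30.2 and 19.6 CPM per kb in R213G libraries and 19.9 and 19.2 CPM per kb in WT libraries. The ratio of the pro-survival to the BH3-only sum was then 5.63 and 5.59 in R213G libraries and 4.76 and 5.34 in WT libraries. On this wider set the R213G libraries were both above the WT libraries, which was not so for the 10 members.

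The comparison between genotypes gave no call. Of the 10 members, 0 passed at an adjusted p under 0.05, among 0 of 13575 tested genes (0% called) by the edgeR quasi-likelihood test with Benjamini-Hochberg adjustment, and limma voom also called 0. DESeq2 called 1 gene, Clrn2, which is not a member and is named only for that call. At an unadjusted p under 0.05 there were 0 members, against 2.22% of tested genes (302). All 10 members passed the filter on low counts. Log2 fold changes, R213G over WT, were positive for 4 members and negative for 6, with a median of -0.03, against 6659 positive and 6916 negative over all tested genes. The median size was 0.07 for the members and 0.17 for all tested genes, and 4 members lay above that of all genes. These medians were not matched for level. Each member had at least 316 counts in every library, while the tested genes include sparse rows such as Bok, with at most 28.

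For the most abundant members the interval around no difference was narrow. Mcl1 averaged 762 ± 27.2 CPM in R213G and 758 ± 21.0 CPM in WT (SD, n = 2 each), a fold of 1.01 with a 95% interval of 0.850 to 1.19. Bak1 had a fold of 1.06 (0.889 to 1.26) and Bax of 1.01 (0.815 to 1.24). Bcl2l11 had a fold of 0.959 (0.795 to 1.16) and Bcl2l1 of 0.987 (0.798 to 1.22). These 5 intervals all lie within 0.795 and 1.26, so the data allow differences up to those sizes and do not show equality.

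The lower members were measured less tightly. Bid had 513 and 703 counts in R213G libraries and 906 and 725 in WT libraries, so its R213G libraries were both below its WT libraries. The log2 fold change of Bid was -0.46 ± 0.26 (SE), with a 95% interval of -1.03 to 0.11 and an adjusted p of 1.00 (edgeR). It was -0.69 without R213G replicate 2, -0.64 without WT replicate 2 and -0.26 without either R213G replicate 1 or WT replicate 1. Of the exon bases of Bid, 17.7% overlap Bcl2l13 on the opposite strand, and the strand setting of the counting is not given in the sources used here. Bcl2l13 had 1919 and 1568 counts in R213G libraries and 1864 and 1810 in WT libraries, more than Bid in each library, and its part in the Bid values was not tested. Bbc3 had 400 and 633 counts in R213G libraries and 703 and 537 in WT libraries, which overlap. The log2 fold change of Bbc3 was -0.30 ± 0.30, but -0.02 without R213G replicate 1 and -0.06 without WT replicate 1, and -0.66 without R213G replicate 2 and -0.51 without WT replicate 2. Trp53, whose product induces Bbc3 and Bax, stood at 18.9 and 17.9 CPM per kb in R213G libraries and 19.0 and 21.5 CPM per kb in WT libraries. Bcl2 had 564 and 544 counts in R213G libraries and 732 and 577 in WT libraries, with WT replicate 1 above the other 3. The log2 fold change of Bcl2 was -0.28 ± 0.26, with -0.07 without WT replicate 1 and -0.46 without WT replicate 2.

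**Figure D3:**
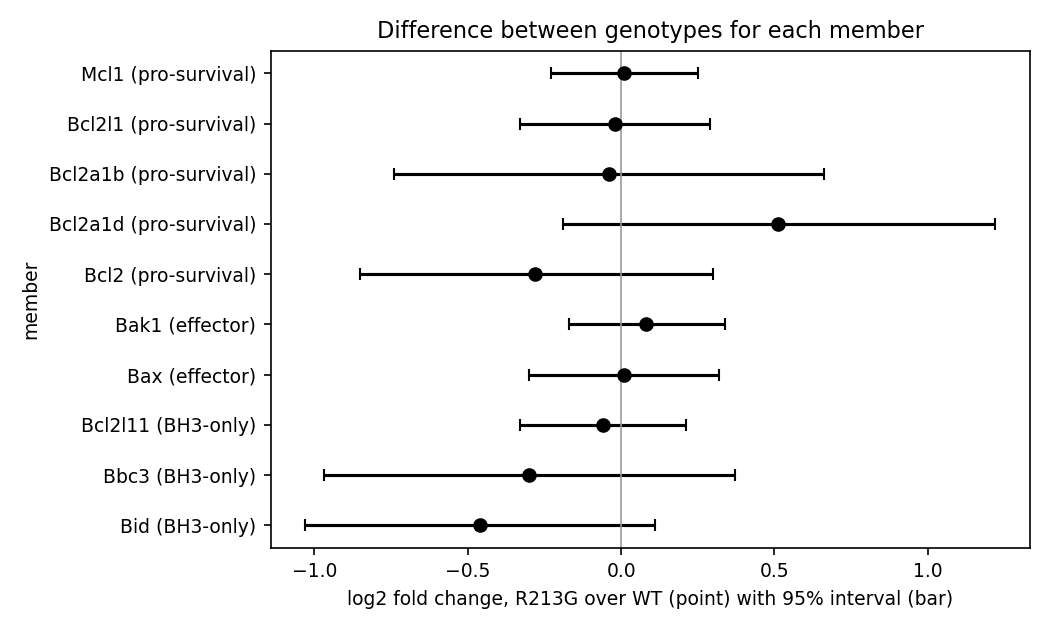
Log2 fold change of each member between genotypes (R213G over WT, point) with its 95% interval (bar) from the edgeR quasi-likelihood fit of 4 libraries. All 10 intervals include 0; those of Mcl1, Bak1, Bax, Bcl2l1 and Bcl2l11 are short and those of the Bcl2a1 pair, Bbc3, Bid and Bcl2 are long.

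Markers of other blood cells were set beside Bcl2, since lymphocytes are rich in it. Of the T and NK cell markers 6 of 8 were analysed, and they summed to 72.2 and 97.7 CPM in R213G libraries and 111 and 84.9 CPM in WT libraries, mostly from Il7r. The sum was highest in WT replicate 1, the highest library for Bcl2, and next highest in R213G replicate 2, the lowest for Bcl2. Of these markers Cd4 had 178 and 550 counts in R213G libraries and 456 and 374 in WT libraries. The Cd3 genes and Cd8a were lower. Cd3d had 0 counts in 3 libraries and 7 in WT replicate 1. Cd3e had 75 and 0 counts in R213G libraries and 37 and 0 in WT libraries. Cd3g had 0 and 5 counts in R213G libraries and 12 and 0 in WT libraries, and Cd8a had 34 counts in R213G replicate 2 and 0 in the other 3 libraries. Of the B cell markers 3 of 5 were analysed, and they summed to 23.9 and 8.10 CPM in R213G libraries and 18.5 and 6.59 CPM in WT libraries. Most came from Ighm, with 786 and 261 counts in R213G libraries and 539 and 210 in WT libraries. Cd79b had 7 to 31 counts per library, with Ms4a1 at 0 counts in both R213G libraries and at 43 and 9 in WT libraries. The part of these cells in the Bcl2 values was not tested.

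Members differed in how far the 2 libraries of a genotype lay apart. The larger of the 2 within-genotype gaps was 0.02 on the log2 CPM scale for Bcl2l11, 0.07 for Mcl1 and 0.09 for Bak1, but 0.59 for Bcl2a1b, 0.63 for Bbc3 and 0.73 for Bcl2a1d. The median over all tested genes, not matched for level, was 0.42, and 4 members lay above it. That gap exceeded the difference between genotypes for 8 of 10 members, against 82.9% of tested genes. The exceptions were Bid, with a difference of -0.46 against a gap of 0.42, and Bcl2l11, with a difference of -0.06 against a gap of 0.02. For 5 members the R213G and WT libraries did not overlap, against 28.9% of tested genes. R213G was higher for Bak1 and Bcl2a1d (background 13.7%) and lower for Bcl2, Bid and Bcl2l11 (background 15.2%). With 10 members these counts are small, and none of the 5 passed the test.

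**Figure D4:**
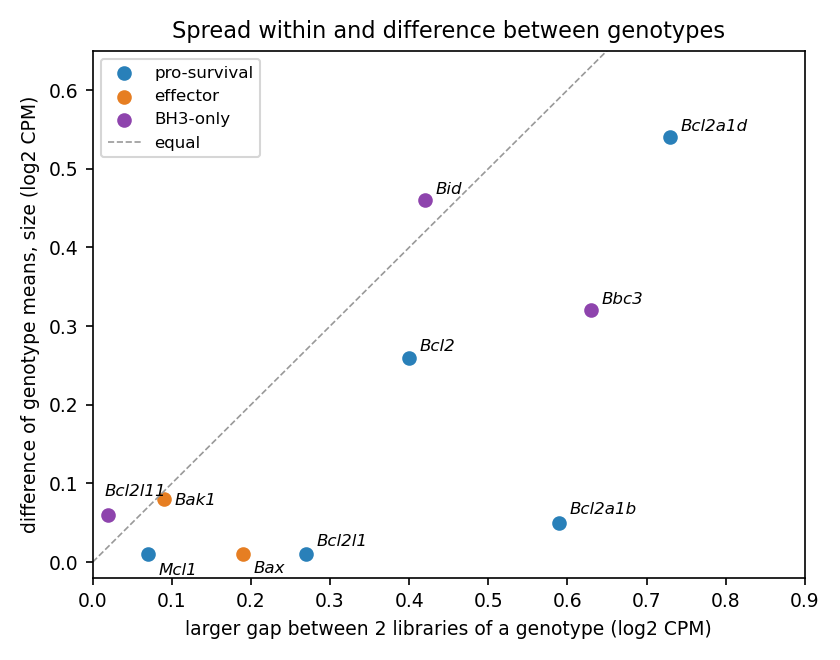
Size of the difference between genotype means against the larger gap between 2 libraries of a genotype, both in log2 CPM, for the 10 members coloured by class; the dashed line marks equal values. Only Bid and Bcl2l11 lie above the line; Bcl2a1d has both the largest difference (0.54) and the largest gap (0.73).

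Bcl2a1d had the widest gap of the members, and its copies are given beside it. Bcl2a1d had 667 and 539 counts in R213G libraries and 508 and 316 in WT libraries, and Bcl2a1b 592 and 400 counts in R213G libraries and 572 and 426 in WT libraries. The log2 fold change was 0.51 ± 0.31 for Bcl2a1d and -0.04 ± 0.31 for Bcl2a1b, so near-identical copies stood on different sides of 0. That of Bcl2a1d was 0.34 without R213G replicate 1, 0.93 without WT replicate 1 and 0.19 without WT replicate 2. That of Bcl2a1b was -0.37 without R213G replicate 1, -0.27 without WT replicate 2, 0.22 without R213G replicate 2 and 0.21 without WT replicate 1. Outside the members, Bcl2a1a had 845 and 559 counts in R213G libraries and 539 and 540 in WT libraries, and Bcl2a1c 71 and 83 in R213G libraries and 131 and 105 in WT libraries. The share of Bcl2a1d in the reads of the 4 rows was 30.7% and 34.1% in R213G libraries and 29.0% and 22.8% in WT libraries. Since the split among copies is uncertain, the 4 rows were also summed before the fit. The sum was 63.7 and 45.4 CPM in R213G libraries and 53.0 and 40.4 CPM in WT libraries, with a log2 fold change of 0.23 ± 0.21 and a 95% interval of -0.24 to 0.69 (edgeR, adjusted p = 1). Leaving out R213G replicate 1 turned it to -0.04, so its direction rested on that library. Leaving out WT replicate 2 gave 0.04, R213G replicate 2 gave 0.45 and WT replicate 1 gave 0.43. The summed rows overlapped between genotypes and were higher in replicate 1 than in replicate 2 of both.

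**Figure D5:**
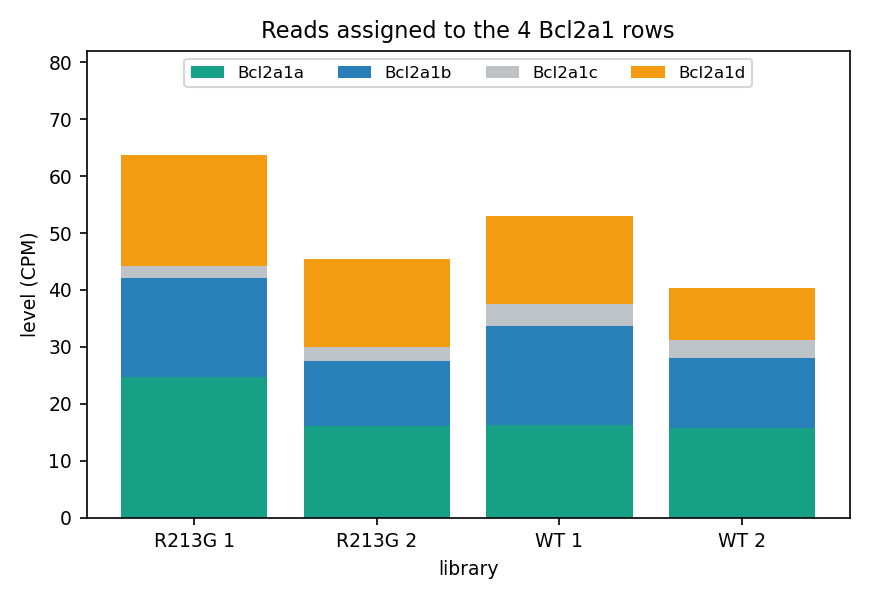
CPM of the 4 Bcl2a1 rows, stacked, in each library, with R213G libraries left of WT libraries. The sum is 63.7 and 45.4 in R213G and 53.0 and 40.4 in WT, and replicate 1 is the taller bar of each genotype.

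Neutrophils also express A1 strongly. Of 10 neutrophil markers, 6 were analysed, and they summed to 137 and 159.6 CPM in R213G libraries and 187 and 180.2 CPM in WT libraries. Csf3r and Mmp8 made up most of this, and both were lower in both R213G libraries than in either WT library without passing the test. The highest library differed among the markers: it was WT replicate 1 for this sum and R213G replicate 1 for S100a8 and S100a9. S100a8 had 674 and 425 counts in R213G libraries and 366 and 452 in WT libraries, while S100a9 had 31 counts in R213G replicate 1 and 0 in the other 3. Cxcr2 had 0 and 33 counts in R213G libraries and 0 and 35 in WT libraries, and Ltf had 0 and 37 in R213G libraries and 21 and 10 in WT libraries. Their part in the Bcl2a1 values was not tested.

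The remaining genes of the pathway were read as lists. Of 13 tested relatives and interactors of the members (15 analysed), 0 passed in either direction, 5 were positive and 8 negative, with a median log2 fold change of -0.03. The highest per kilobase was Bnip2, a BCL2-interacting protein, at 50.3 and 44.2 CPM per kb in R213G libraries and 48.7 and 44.2 CPM per kb in WT libraries. The smallest unadjusted p among them (edgeR), 0.241, belonged to Bcl2a1a. The mitophagy receptor gene Bnip3l stood at 17.9 and 17.1 CPM per kb in R213G libraries and 15.1 and 18.0 CPM per kb in WT libraries. Bcl2l12 stood at 8.46 and 7.84 CPM per kb in R213G libraries and 7.34 and 7.89 CPM per kb in WT libraries. Bnip3, Bcl2l14 and Bcl2l15 were scarce, with at most 153, 58 and 23 counts in any library. Of 10 transcription factors that act on the family, 0 passed, 4 were positive and 6 negative (median -0.04). Rela, the NF-kB subunit, was both the highest and the one of smallest p, at 34.4 and 34.7 CPM per kb in R213G libraries and 42.9 and 36.3 CPM per kb in WT libraries (log2 fold change -0.20 ± 0.13). Of 8 enzymes and binding proteins that act on the stability or activity of the members, 0 passed, 4 were positive and 4 negative (median -0.03). Akt1, the kinase that phosphorylates BAD, was the highest at 115 and 102 CPM per kb in R213G libraries and 103 and 108 CPM per kb in WT libraries. Usp9x, a deubiquitinase that stabilises MCL-1, had the smallest p of the list, with a log2 fold change of -0.18 ± 0.17.

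Downstream of the effectors the picture was similar. Of 15 mitochondrial partners and apoptosome genes, 0 passed, 8 were positive and 7 negative (median 0.05), and for 6 of them the R213G and WT libraries did not overlap, against 28.9% of tested genes. Vdac1, a channel of the outer mitochondrial membrane, was the highest at 60.6 and 60.7 CPM per kb in R213G libraries and 53.8 and 58.1 CPM per kb in WT libraries. Diablo, which is released with cytochrome c and blocks inhibitors of caspases, had the smallest p, with 35.8 and 31.6 CPM in R213G libraries and 28.8 and 24.7 CPM in WT libraries (log2 fold change 0.33 ± 0.20). Of its exon bases 40.9% overlap other annotated genes. Diablo did not pass. Cycs, which encodes cytochrome c, had only 28 and 48 counts in R213G libraries and 63 and 51 in WT libraries. This gene has many processed copies in the mouse genome, so its row may not hold all of its reads.

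The other cell marker lists were read in the same way, and 0 of their genes passed. Markers of resident alveolar macrophages summed to 71.4 and 98.3 CPM in R213G libraries and 51.7 and 71.1 CPM in WT libraries, led by Pparg, with Fabp1 at 0 counts in replicate 1 of both genotypes. Monocyte markers summed to 907 and 686 CPM in R213G libraries and 642 and 1151 CPM in WT libraries. The largest part was Ccr2, at 674 and 472 CPM in R213G libraries and 477 and 595 CPM in WT libraries. Per kilobase Chil3 was the highest, at 198 and 177 CPM in R213G libraries and 134 and 504 CPM in WT libraries. Much of the difference between the WT sums thus came from this 1 gene. Plac8 had 0 counts in R213G replicate 1. Epithelial markers summed to 34.5 and 21.3 CPM in R213G libraries and 17.6 and 14.9 CPM in WT libraries, led by Epcam, while Sftpc and Sftpa1 had 0 counts in replicate 1 of both genotypes and Ager had 0 in R213G replicate 1. R213G replicate 1 was the highest library for the epithelial sum through Epcam, at 32.2 CPM there. The other epithelial markers were each highest in another library. Scgb1a1 had 64 and 87 counts in R213G libraries and 19 and 34 in WT libraries, and Sftpb 14 and 76 in R213G libraries and 22 and 33 in WT libraries. Among the members R213G replicate 1 was the highest library for 3 (Mcl1, Bcl2a1b and Bcl2a1d) and the lowest for 3 (Bid, Bbc3 and Bcl2l11). Over all tested genes R213G replicate 1 was the highest library for 31.2% and the lowest for 36.5%, so such extremes were common. Bcl2a1b stood at 17.3 CPM in replicate 1 of both genotypes. Bcl2l11 stood at 120.2 CPM in R213G replicate 1 and at 121 CPM in the other R213G library. The part of the cells behind these marker lists in the members' values was not tested.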

How the data were processed

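RNA from sorted cells was made into directional poly(A) libraries, per the labels' protocols. The deposited table holds the authors' raw counts, with a row for each gene symbol and a column for each library, not normalized. STAR 2.5.1b, featureCounts of Subread 1.4.4 and GRCm38 are named per the submitters' processing notes. The annotation release, the strand setting, any filter and the handling of multi-mapping reads: not given in the sources used here.

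The members and gene lists were chosen with earlier results of these data known. The text names all members and all relatives and interactors listed with the family. Per list it names the genes of highest level per kilobase and of smallest p, and markers at 0. Trp53, S100a8, Cd4, Ccr2, Scgb1a1, Sftpb, Clrn2, Lars2, Gm42418 and the motif were chosen after their values were seen. Titles gave the groups. Genotypes were compared with the quasi-likelihood test of edgeR 4.0.16 (newer form set explicitly, robust), TMM normalization, filterByExpr (13575 genes), Benjamini-Hochberg adjustment over all tested genes and a threshold of 0.05, in R 4.3.3. The SE was the size of the log2 fold change divided by the square root of F. Intervals (95%) used the t distribution with the degrees of freedom of the fit. The fit draws the variance of each gene toward that of other genes. These degrees of freedom had a median of 9.53, against 2 residual ones. Gaps between libraries were taken on log2(CPM + 0.125). Gene lengths were taken from the GENCODE vM21 annotation of GRCm38, where 96.9% of the symbols were found. Sequences were compared with Biopython 1.88. The scripts were tested on simulated data. Chi-square per degree of freedom was at least 17.5 for each pair of libraries, so no library was a repeat. Molecular identifiers were not used here, so duplicate reads were not told from separate molecules.

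Alternatives were DESeq2 size factors, no filter, the legacy form, DESeq2 1.42.0, limma 3.58.1 voom, a replicate block, summed Bcl2a1 rows, other lengths, no normalization factor and leaving out each library, the last also for the summed Bcl2a1 rows, chosen after seeing the data.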

Additional observations from a re-analysis of the deposited data

How the results depend on the processing

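No member passed under any alternative run: the count of members past the threshold was 0 in each, of 9 where the Bcl2a1 copies were summed and of 10 otherwise. The count over all genes was 0 except for 1 with DESeq2 (Clrn2) and a range of 0 to 2 when 1 library was left out, the 2 being Gm42418 and Lars2 without R213G replicate 2; at an unadjusted p under 0.05 the count with all libraries was 302, and 1960 without R213G replicate 2 and 71 without WT replicate 1. Bid was the only member under an unadjusted p of 0.05 in any setting (0.0353 without R213G replicate 2). A fit without 1 library leaves a single sample in that genotype, which is assumed to vary like the other genotype's pair. Its p-values, those just given included, therefore rest on that pair's spread and on the variance shared across genes by the fit. Of 112 recomputed log2 fold changes, 104 kept their sign and 8 turned, all from leaving out a library (ranges over the 4 such fits in brackets): Mcl1 (-0.03 to 0.04) to -0.03 and -0.02 without R213G replicate 1 and WT replicate 1, Bcl2a1b (-0.37 to 0.22) to 0.22 and 0.21 without R213G replicate 2 and WT replicate 1, Bcl2l1 (-0.15 to 0.12) to 0.12 without WT replicate 1, Bax (-0.08 to 0.11) to -0.04 and -0.08 without R213G replicate 2 and WT replicate 1, and the summed Bcl2a1 copies (-0.04 to 0.45, fits chosen after seeing the data) to -0.04 without R213G replicate 1. The ratio of pro-survival to BH3-only level, 10.8 in R213G and 9.10 in WT, was 7.92 and 6.75 per kilobase of longest transcript, 3.94 and 3.55 per coding kilobase, 5.61 and 5.05 with the wider family, and 8.07 in WT without the Bcl2a1 rows; leaving out a library gave 9.45 to 12.2 in R213G and 8.65 to 9.55 in WT. The shared replicate numbers mark no stated batch, and deviations of same-numbered libraries correlated at 0.0995 across genes; with the replicate block 0 genes passed and Bcl2a1d stood at 0.53. With 2 libraries per genotype, differences of the size seen for Bid or Bcl2a1d were not separable from the spread between libraries.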
